A study of Mus musculus with 22 samples.

Results

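Glucose enters thymocytes through transporters, is phosphorylated and split in glycolysis, and ends as pyruvate, which is either reduced to lactate or passed to the mitochondrial pyruvate dehydrogenase (PDH) complex. The 10 genes described here cover these steps and were chosen by name from the 43430 genes of the deposited tables. They are the glucose transporters Slc2a1 and Slc2a3, the hexokinases Hk1 and Hk2, the phosphofructokinase Pfkp, the aldolase Aldoa, the pyruvate kinase Pkm, the lactate dehydrogenase Ldha and the PDH kinases Pdk1 and Pdk2. Each was followed in all 22 libraries of the series.

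Hexokinase traps glucose in the cell as its phosphate, phosphofructokinase makes the step that commits it to glycolysis, and pyruvate kinase yields pyruvate. PDH kinases phosphorylate the PDH complex and switch it off, which keeps pyruvate out of the mitochondrial citric acid cycle. T cell progenitors take up more glucose as they proliferate after pre-T cell receptor signalling, and most double-positive thymocytes are small resting cells.

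The libraries came from CD45.1+ thymocytes gated as CD4+CD8+, called double-positive cells, in mice that kept or lost E2a, whose gene symbol is Tcf3. E2a encodes E proteins, transcription factors of lymphocyte development, and the series dealt with thymocyte competition and the suppression of T cell acute lymphoblastic leukaemia by E2a. Every group carried the floxed alleles E2aF/F. Controls were E2aF/F with no Cre named. Vav knockouts were VavCre E2aF/F, in which Cre is driven from the Vav promoter across blood cell lineages from their stem cells on. Lck knockouts were LckCre E2aF/F, in which the Lck promoter drives Cre in developing T cells. At 4 weeks of age there were 3 Vav knockouts with 3 controls and 3 Lck knockouts with 3 controls. The 8-week table held 3 Vav knockouts, 3 controls and 4 transplanted mice, which were VavCre E2aF/F, had been sublethally irradiated and given wild-type bone marrow as competitor, and were taken 4 weeks after transplantation. The labels name no animal for a library, so the p-values here reflect variation from library to library, which may be technical in part. Which cells carried CD45.1 in the transplanted mice is not stated in the labels.

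Values are FPKM, fragment counts scaled to gene length and to library size, so levels of different genes can be set side by side. The step size of low values gave a rough depth of 5.45 to 37.3 M reads per library. Tcf3 itself lay between 6.39 and 8.22 FPKM in the 9 control libraries and between 1.15 and 2.32 in the 13 knockout and transplanted libraries. All 10 double-positive thymocyte markers, Cd4, Cd8a and Rag1 among them, reached 1 FPKM in each group. Their summed level ran from 4589 to 4974 FPKM in controls, 3352 to 3998 in Vav knockouts at 4 weeks, 4256 to 4473 in Lck knockouts, 2241 to 2503 in Vav knockouts at 8 weeks and 1371 to 3488 in the transplanted mice. Early progenitor markers, 8 genes, summed to 2.33 to 4.26 FPKM in controls, 14.9 to 32.5 in Vav knockouts at 4 weeks, 4.97 to 6.58 in Lck knockouts, 8.72 to 27.9 at 8 weeks and 7.43 to 132 in transplanted mice. In controls 1 of the 8 reached 1 FPKM, Il2ra, which held 1.84 to 3.12 FPKM there and 13.5 to 30.9 in Vav knockouts at 4 weeks, so the 4-week sums rest mostly on that gene. Mature single-positive T cell markers, 7 genes, summed to 23.1 to 36.4 FPKM in controls, 51.8 to 53.4 and 52.8 to 78.9 in Vav knockouts at 4 and 8 weeks and 53.1 to 179 in transplanted mice. Macrophage and granulocyte markers reached at most 5.45 FPKM in controls, 10.9 in Vav knockouts and 28.0 in transplanted mice as sums of 8 genes. In bulk samples such as these, fewer cells of a type and less RNA per cell cannot be told apart. Transplanted replicate 3 stood apart from its group, with a mean correlation of 0.831 to the other transplanted libraries.

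Promoter sequence is shown for Pdk2 and Pfkp, called with any library left out at 4 weeks, and for Hk2, the 1 member that rose, because the deleted factor binds E-boxes, sites with the letters CANNTG. The windows cover the 250 bases before the transcription start in RefSeq (GRCm38.p6), the most upstream start for Pdk2. They are read 5′ to 3′ on the gene's strand, and capitals mark each CANNTG on either strand. They lie at chr11:95041372-95041621 (Pdk2), chr13:6648772-6649021 (Pfkp) and chr6:82774455-82774704 (Hk2), all on the minus strand. The last 6 bases of the Pfkp window lie in its first exon in the GENCODE annotation, and the other windows hold no exon bases.
Pdk2: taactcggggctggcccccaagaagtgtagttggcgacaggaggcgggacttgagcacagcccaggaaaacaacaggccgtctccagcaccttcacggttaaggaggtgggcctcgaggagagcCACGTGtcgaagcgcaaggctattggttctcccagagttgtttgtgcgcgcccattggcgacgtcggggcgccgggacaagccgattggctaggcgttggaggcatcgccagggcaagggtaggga
Pfkp: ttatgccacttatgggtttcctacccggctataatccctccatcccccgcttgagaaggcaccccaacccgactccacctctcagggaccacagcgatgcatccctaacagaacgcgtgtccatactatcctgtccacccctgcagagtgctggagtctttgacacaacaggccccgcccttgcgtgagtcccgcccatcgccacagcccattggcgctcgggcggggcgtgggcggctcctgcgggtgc
Hk2: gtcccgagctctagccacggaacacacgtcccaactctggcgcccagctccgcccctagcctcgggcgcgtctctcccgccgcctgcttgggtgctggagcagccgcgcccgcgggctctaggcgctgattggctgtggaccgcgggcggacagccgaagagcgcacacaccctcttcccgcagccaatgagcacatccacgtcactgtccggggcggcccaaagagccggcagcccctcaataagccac
The Pdk2 window held 1 such site, CACGTG at position -126 from the start, which is also the form bound by MYC and MAX. The Pfkp and Hk2 windows held 0 sites with these letters. Of 32851 promoter windows in the RefSeq table, 66.2% held at least 1 CANNTG in the same 250 bases, so a match or its lack describes these letters only.

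Pdk2 had the largest difference among the 10 genes in each comparison of Vav knockouts with controls. In Vav knockouts at 4 weeks Pdk2, Pfkp and Slc2a1 fell, and in Lck knockouts of the same age no member passed the test. At 8 weeks Pdk2 fell in Vav knockouts, and in transplanted mice Pdk2 and Pdk1 fell and Hk2 rose. Aldoa, Pkm, Ldha, Hk1 and Slc2a3 passed the test in none of these 4 comparisons. A gene was called where limma's adjusted p over all tested genes was under 0.05, on log2(FPKM + 1), and a gene was tested where at least 3 libraries reached 1 FPKM.

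**Figure D1:**
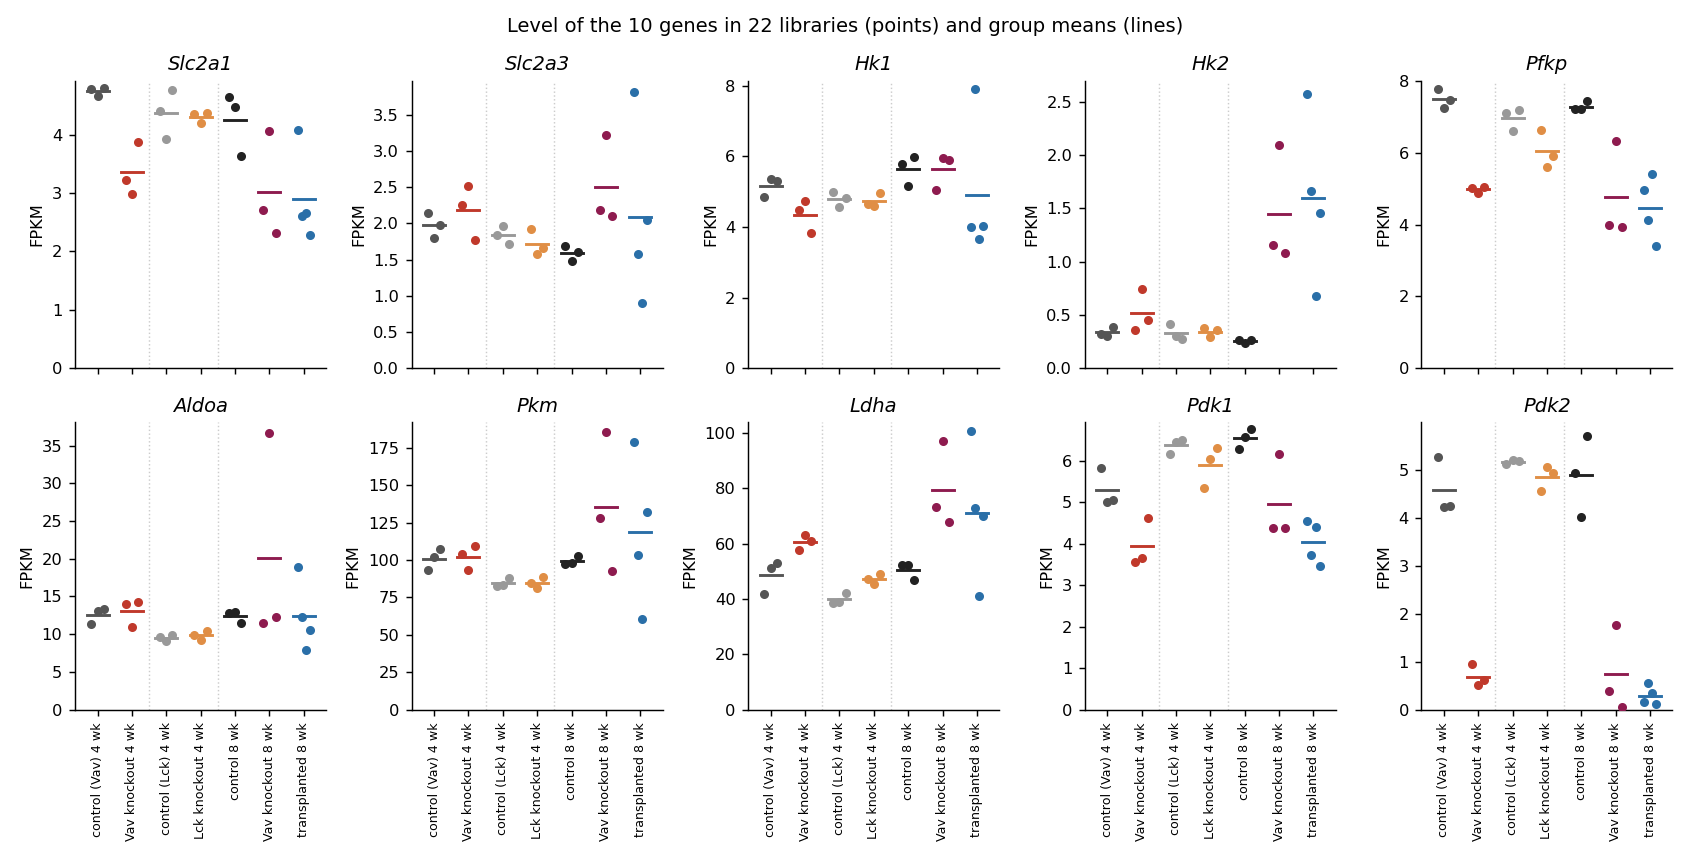
FPKM of the 10 genes (vertical axis, linear, from 0) in the 7 groups (horizontal axis, with 4-week Vav, 4-week Lck and 8-week tables parted by dotted lines). Points are libraries and lines are group means. Pdk2 lies at 0.0453 to 1.77 FPKM in Vav knockout and transplanted libraries and at 4.02 to 5.71 in all controls.

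Called members numbered 3 of 9 tested in Vav knockouts at 4 weeks, where 13.7% of 10828 genes were called in either direction, 7.63% higher and 6.08% lower. In Lck knockouts 0 of 9 were called, with a background of 1% of 10946 genes, 0.201% higher and 0.804% lower, and 2 had an unadjusted p under 0.05. Of all 10946 genes, 1503 reached that level there. In Vav knockouts at 4 weeks 3239 of 10828 did. At 8 weeks 3417 of 11632 did in Vav knockouts and 3028 of 11632 in transplanted mice. In Vav knockouts at 8 weeks 1 of 10 was called, near the background of 9.1% of 11632 genes, of which 4.65% were higher and 4.45% lower. Transplanted mice gave 3 of 10 called, 2 lower and 1 higher, against 9.19% of the same genes, 4.59% higher and 4.6% lower. Both 8-week comparisons shared their 3 controls. The median difference of the members was -0.21 at 4 weeks in Vav knockouts, -0.01 in Lck knockouts, 0.19 in Vav knockouts at 8 weeks and -0.14 in transplanted mice, while the medians over all tested genes lay between -0.01 and 0.02. Hk2 was below 1 FPKM in every 4-week library, was not tested there, and entered the 8-week test only through knockout and transplanted libraries. Pdk2 entered the 4-week Vav test only through its controls. At 8 weeks it needed them too, as only the 3 controls and Vav knockout replicate 2 (1.77 FPKM) reached 1 FPKM. These counts therefore describe the members and support nothing about the pathway.

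**Figure D2:**
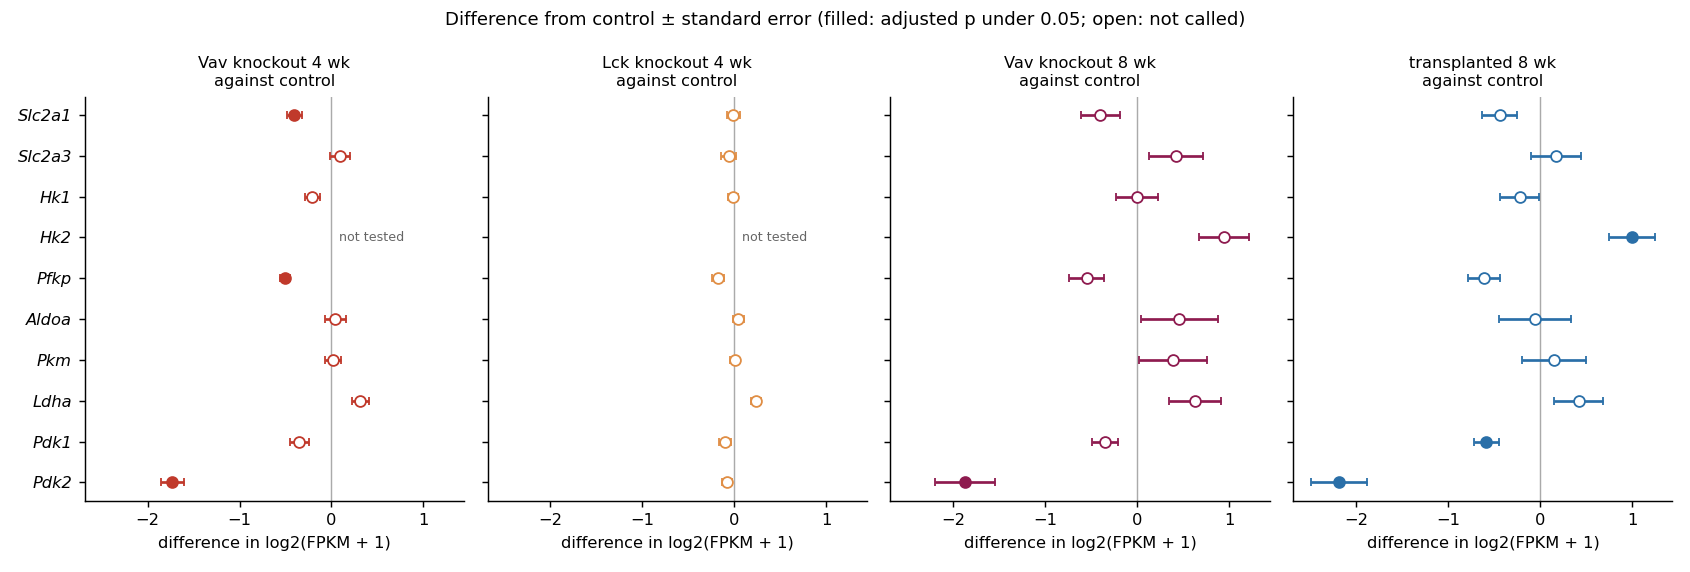
Difference of each gene from control in log2(FPKM + 1) (horizontal axis) with its standard error, for the 4 comparisons with control, with genes on the vertical axis. Filled points passed an adjusted p of 0.05 and open points did not. Pdk2 sits at -1.73, -0.08, -1.88 and -2.19 from left to right.

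Pdk2 encodes a PDH kinase, and its level separated the Vav groups from their controls completely. The 3 controls at 4 weeks held 5.27, 4.23 and 4.24 FPKM and the 3 Vav knockouts 0.945, 0.507 and 0.610. The lowest control thus stood at more than 4 FPKM and the highest knockout under 1. Pdk2 fell by 1.73 on the log2 scale (SE 0.13, adjusted p = 0.00146), to 15.0% of the control mean, and was called with any 1 of the 6 libraries left out. On a scale with a pseudocount of 0.1 FPKM the same difference was -2.60, since adding 1 compresses low values. Pdk2 entered the 4-week Vav test only through its controls, and fits without a library kept the same tested genes. Its calls there therefore describe these values only.

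In Lck knockouts Pdk2 held 4.56, 5.06 and 4.93 FPKM beside 5.12, 5.20 and 5.20 in their controls. The ranges did not overlap, yet the gap was small. The difference was -0.08 (SE 0.05, adjusted p = 0.592). The difference from control was not the same for both deletions: the Vav effect minus the Lck effect, tested as an interaction over the 12 libraries of 4 weeks, was -1.65 (SE 0.14, adjusted p = 0.000248). Pdk2 was the 1 member of 9 called in that test, in which 3.3% of genes were called in either direction and 1.65% were called lower. It entered that test only with its Vav controls, so this call too describes the values only. Tcf3 lay at 1.15 to 1.39 FPKM in the Vav knockouts and at 1.20 to 1.33 in the Lck knockouts.

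At 8 weeks the controls held 4.93, 4.02 and 5.71 FPKM of Pdk2. Vav knockouts held 0.390, 1.77 and 0.0453, and transplanted mice 0.156, 0.555, 0.346 and 0.106. All 7 libraries lay below the controls, with Vav knockout replicate 2 the highest of them and replicate 3 the lowest. Pdk2 fell by 1.88 (SE 0.33, adjusted p = 0.00985) in Vav knockouts and by 2.19 (SE 0.30, adjusted p = 0.00303) in transplanted mice, to 15.0% and 5.95% of the control mean. Both calls held with each of the 10 libraries left out in turn. Pdk2 entered these fits only with its controls, so these calls also describe the values only. The Vav effect on Pdk2 differed between 8 and 4 weeks by -0.15 (SE 0.41, adjusted p = 0.831), an interval too wide to show that the ages were alike. Where Pdk2 was low the summed double-positive markers were lower and early progenitor markers higher than in controls. Lck knockouts, in which Pdk2 was not called, differed in the same directions. Their double-positive markers summed to 4256 to 4473 FPKM beside 4589 to 4810 in their controls, and early progenitor markers to 4.97 to 6.58 beside 2.97 to 4.26. The part of these markers in the Pdk2 values was not tested.

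Pdk1, another PDH kinase and a target of the hypoxia factor HIF1, moved less. Controls at 4 weeks held 5.82, 4.99 and 5.06 FPKM and Vav knockouts 3.56, 3.66 and 4.62. The groups did not overlap, and the difference of -0.35 (SE 0.10) missed the threshold (adjusted p = 0.0688), although it passed without knockout replicate 3 (-0.45, adjusted p = 0.0366). In Lck knockouts Pdk1 ran from 5.33 to 6.30 FPKM beside 6.17 to 6.50 in controls, with a difference of -0.10 (SE 0.07, adjusted p = 0.588).

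Among the 8-week libraries Pdk1 held 6.29, 6.57 and 6.76 FPKM in controls, 4.38, 6.15 and 4.37 in Vav knockouts, and 4.54, 3.72, 4.39 and 3.47 in transplanted mice. Each transplanted library lay below the lowest control, and Vav knockout replicate 2 came close to the controls. Pdk1 fell by 0.59 (SE 0.14, adjusted p = 0.0288) in transplanted mice, and its difference in Vav knockouts was -0.35 (SE 0.15, adjusted p = 0.149). The call in transplanted mice was lost without any 1 control (adjusted p = 0.0963, 0.117 and 0.119) and without transplanted replicate 2 (0.0551) or 4 (0.0599).

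The members hold a pair of hexokinases. Hk1, the housekeeping form, stood at 4.58 to 5.98 FPKM in the 9 controls and Hk2, the inducible form, at 0.235 to 0.411. At 8 weeks Hk2 held 0.266, 0.235 and 0.262 FPKM in controls, 1.16, 2.09 and 1.08 in Vav knockouts, and 2.58, 1.67, 0.673 and 1.46 in transplanted mice. All 7 lay above all controls, with transplanted replicate 1 highest and transplanted replicate 3 lowest of the 7. The mean of Vav knockouts was 5.68 times and that of transplanted mice 6.26 times the control mean.

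Hk2 rose by 0.997 on the log2 scale in transplanted mice (SE 0.25, adjusted p = 0.0410), and its difference in Vav knockouts was 0.94 (SE 0.27, adjusted p = 0.0609). Its controls all lay under 1 FPKM, so Hk2 entered this test only through knockout and transplanted libraries. Its calls therefore describe these values only. The call in transplanted mice was kept in 2 of 10 fits with a library left out, those without Vav knockout replicate 2 and without transplanted replicate 3; without any 1 of the other 8 the adjusted p lay between 0.0589 and 0.141. In Vav knockouts Hk2 was called without transplanted replicate 1 (adjusted p = 0.0360) or 3 (0.0109). At 4 weeks Hk2 held 0.356, 0.748 and 0.453 FPKM in Vav knockouts and 0.306 to 0.383 in controls, ranges that overlap, and a fit with no filter gave a difference of 0.18 (SE 0.10, adjusted p = 0.422). Lck knockouts lay at 0.291 to 0.374 FPKM beside 0.276 to 0.411.

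Hk1 differed by -0.21 in Vav knockouts at 4 weeks (SE 0.08, adjusted p = 0.151), by -0.01 in Lck knockouts (SE 0.05) and by -0.00275 in Vav knockouts at 8 weeks (SE 0.23). In transplanted mice it held 3.99, 7.92, 3.66 and 4.04 FPKM beside 5.16 to 5.98 in controls. Replicate 2 was above all controls and the other 3 were below all of them. The difference over the 4 was -0.22 (SE 0.21, adjusted p = 0.546), and without replicate 2 it was -0.44 and was called (adjusted p = 0.0462).

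Pfkp is the platelet-type subunit of phosphofructokinase. Controls at 4 weeks held 7.78, 7.26 and 7.47 FPKM and Vav knockouts 5.01, 4.89 and 5.04. The spread within each group was far below the gap between them. Pfkp fell by 0.51 (SE 0.05, adjusted p = 0.00346), to 66.4% of the control mean, and was called with any 1 of the 6 libraries left out. Lck knockouts held 6.65, 5.60 and 5.90 FPKM beside 7.11, 6.61 and 7.19, which overlap, for a difference of -0.18 (SE 0.07, adjusted p = 0.342). The Vav effect minus the Lck effect was -0.33 (SE 0.08) and missed the threshold (adjusted p = 0.0638).

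The same gene at 8 weeks lay at 7.21, 7.21 and 7.44 FPKM in controls, at 4.00, 6.33 and 3.94 in Vav knockouts and at 4.97, 4.13, 5.40 and 3.40 in transplanted mice. Each of these 7 libraries was below each control. The differences were -0.55 (SE 0.19, adjusted p = 0.0935) and -0.61 (SE 0.18, adjusted p = 0.0615) and were not called. Transplanted Pfkp was called without Vav knockout replicate 2 (adjusted p = 0.0404) and, as -0.69, without transplanted replicate 3 (adjusted p = 0.0172). Pitrm1, on the opposite strand, overlaps the annotated Pfkp, so that part of its reads may be shared.

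Slc2a1 encodes GLUT1, the main glucose transporter of proliferating T cells. At 4 weeks it held 4.78, 4.67 and 4.79 FPKM in controls and 3.22, 2.99 and 3.87 in Vav knockouts, with no overlap. It fell by 0.40 (SE 0.08, adjusted p = 0.0268). The call was lost without any 1 control (adjusted p = 0.0904, 0.0925 and 0.0991) and without knockout replicate 1 (0.0632). Lck knockouts lay between 4.19 and 4.37 FPKM and their controls between 3.93 and 4.76, for a difference of -0.01 (SE 0.07). For Slc2a1 the Vav effect minus the Lck effect was -0.39 (SE 0.11, adjusted p = 0.0865), past the threshold only without Vav knockout replicate 3 (-0.47, adjusted p = 0.0307).

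By 8 weeks controls held 4.64, 4.47 and 3.63 FPKM of Slc2a1, Vav knockouts 2.71, 4.05 and 2.31, and transplanted mice 4.08, 2.60, 2.65 and 2.28. Vav knockout replicate 2 and transplanted replicate 1 reached into the control range. Differences were -0.40 (SE 0.21, adjusted p = 0.227) and -0.44 (SE 0.19, adjusted p = 0.186). Slc2a3, which encodes GLUT3, lay near 2 FPKM in most libraries. At 8 weeks it held 1.48 to 1.69 FPKM in controls, 2.10 to 3.21 in Vav knockouts and 0.905 to 3.82 in transplanted mice, the widest range of any group. Its differences ran from -0.06 in Lck knockouts to 0.42 in Vav knockouts at 8 weeks (SE 0.30, adjusted p = 0.364).

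Pkm was the most abundant of the 10 genes per length in every library, at 60.6 to 186 FPKM, followed in every library by Ldha at 38.6 to 101. Ldha turns pyruvate into lactate. It held 42.0, 51.3 and 52.9 FPKM in controls at 4 weeks and 57.7, 63.2 and 60.9 in Vav knockouts. In the Lck table controls held 38.6, 39.1 and 42.3 and knockouts 47.2, 45.5 and 49.1. Knockouts lay above controls without overlap in both tables, and neither difference passed the test (0.31, SE 0.10, adjusted p = 0.0793 for Vav; 0.24, SE 0.05, adjusted p = 0.125 for Lck).

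At 8 weeks Ldha held 52.3, 52.4 and 46.9 FPKM in controls, 73.4, 97.2 and 67.8 in Vav knockouts and 101, 73.0, 41.0 and 69.9 in transplanted mice. Transplanted replicate 3 was the lowest of all 10 libraries and the other 6 were above the controls. The differences were 0.63 (SE 0.28, adjusted p = 0.175) and 0.42 (SE 0.26, adjusted p = 0.345). Without transplanted replicate 3 both were called, at 0.63 (adjusted p = 0.0279) and 0.66 (adjusted p = 0.0214).

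Aldoa splits the phosphorylated sugar into triose phosphates. It held 11.4, 36.6 and 12.2 FPKM in Vav knockouts at 8 weeks beside 11.5 to 12.9 in controls, so that 1 library made the difference of 0.46 (SE 0.42, adjusted p = 0.487). In transplanted mice it ran from 7.86 to 18.9 FPKM. Pkm spread in the same libraries, at 128, 186 and 92.8 FPKM in Vav knockouts and 179, 103, 60.6 and 132 in transplanted mice, beside 97.7 to 103 in controls. At 4 weeks the differences were 0.04 in each table for Aldoa and 0.02 and 0.01 for Pkm on the log2 scale. Copies of Aldoa, Pkm and Ldha are known as pseudogenes, and the treatment of reads that match several copies is not stated.

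Groups were also compared by whether their libraries overlapped with those of their controls. Of the 10 members, 6 did not overlap in Vav knockouts at 4 weeks, 2 in Lck knockouts, 6 in Vav knockouts at 8 weeks and 4 in transplanted mice. Over all tested genes the shares were 37.8%, 20%, 57.6% and 24.4%. The counts of Lck knockouts and of Vav knockouts at 8 weeks were thus near those of all genes. Hk2, 1 of the 10, was not tested at 4 weeks and overlapped with controls there.

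Vav knockout and transplanted libraries at 8 weeks correlated less within their groups (mean r from 0.831 to 0.953) than the other libraries did (0.974 to 0.991). Transplanted replicate 3 was the lowest of the 10 libraries for 5 members, Slc2a3, Hk1, Aldoa, Pkm and Ldha, and for 7 of 11 other glycolytic enzymes tested there, Gapdh (21.0 FPKM) and Tpi1 (5.17 FPKM) among them. It also had the lowest Mki67, a gene of cycling cells, at 25.6 FPKM beside 66.4 to 109 in the other transplanted mice, and the 20 cell cycle genes summed to 305 FPKM there and to 950 to 1267 in the other 9 libraries. Its double-positive markers summed highest of the 4, at 3488 FPKM. Vav knockout replicate 2 was highest for Aldoa and Pkm and for 5 other glycolytic enzymes, and transplanted replicate 1 for Slc2a3, Hk2 and Ldha. Erythroid markers summed to 72.9 FPKM in transplanted replicate 3 and to 29.2 to 51.3 in the other transplanted mice. B cell markers, 7 genes, summed to 100 to 141 FPKM in Vav knockouts of 8 weeks, 111 to 165 in transplanted mice and 186 to 243 in controls. Only 2 of the 7 reached 1 FPKM in these Vav knockouts, 3 in transplanted mice and 4 in controls, so the sums rest on few of the genes. Thymic stroma markers, 8 genes, summed to 20.3 FPKM in Vav knockout replicate 2 and to 2.52 and 6.50 in the other Vav knockouts of 8 weeks. They summed to 1.47 to 1.59 in controls and to 0.688 to 14.9 in transplanted mice, with replicate 4 highest. In Vav knockouts at 4 weeks they summed to 1.71 to 15.1 FPKM, with replicate 2 highest. Only 1 of the 8 genes reached 1 FPKM in these knockouts, so the highest sum rests mostly on that gene. Epcam, of the same list, was called lower there by limma (-0.80, adjusted p = 0.00326), and it entered that test only with its controls. Transplanted replicate 4 held 10.5 FPKM of Aldoa and 132 of Pkm, and the 4-week replicate 2 held 10.9 and 93.3. Dendritic cell markers, 6 genes, summed to 6.33 to 9.21 FPKM in Vav knockouts of 8 weeks. Their sums were 3.03 to 5.53 in transplanted mice and 2.42 to 2.59 in controls of 8 weeks. Without transplanted replicate 3, calls over all 11632 genes went from 541 higher and 518 lower to 1902 and 1623 in Vav knockouts, and from 534 and 535 to 2105 and 1708 in transplanted mice, and the members called without it are to be read against these counts. The part of these markers in the members' values was not tested.

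**Figure D3:**
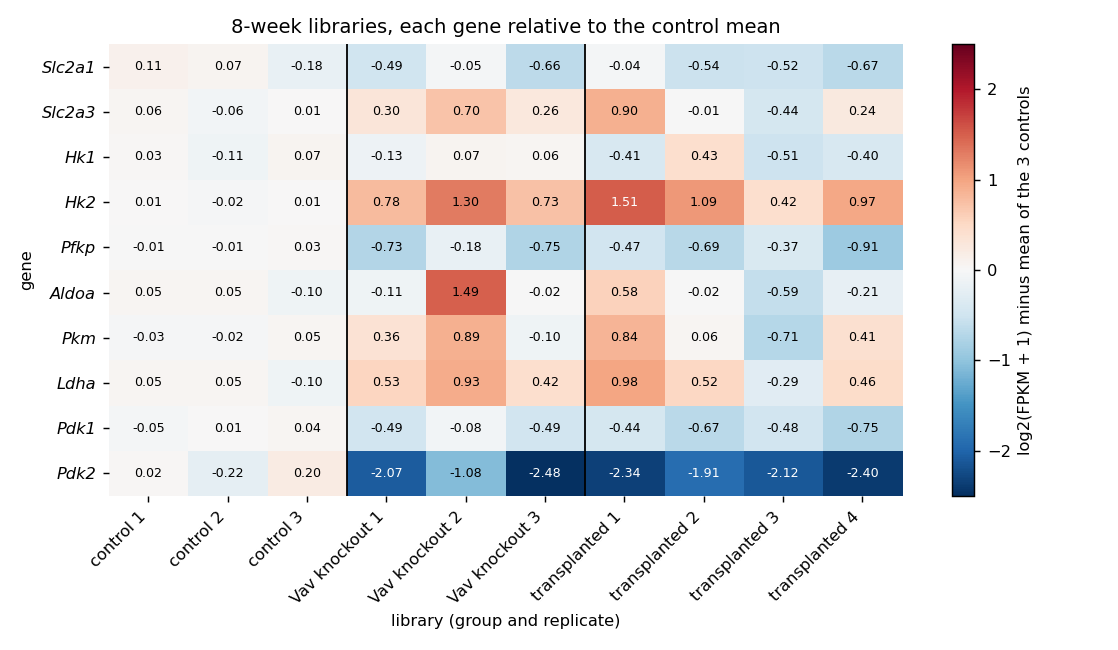
Each of the 10 genes (rows) in the 10 libraries of 8 weeks (columns), as log2(FPKM + 1) minus the mean of the 3 controls, with red higher, blue lower and the value printed in each cell. Pdk2 is negative in all 7 knockout and transplanted libraries, while Pkm runs from -0.71 in transplanted replicate 3 to 0.89 in Vav knockout replicate 2.

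No member differed detectably between transplanted and untransplanted mice. Transplanted against untransplanted Vav knockouts at 8 weeks gave 0 of 10 members called and 0 at an unadjusted p under 0.05, where 0% of 11632 genes were called and 681 had an unadjusted p under 0.05. Of all tested genes 5.99% did not overlap between these groups. The largest differences were -0.52 for Aldoa (SE 0.39) and -0.31 for Pdk2 (SE 0.30), and that of Hk2 was 0.06 (SE 0.25). Standard errors of this size allow sizeable differences in either direction. The Vav effect at 8 minus 4 weeks gave 0 of 9 members called, against 18.2% of 10489 genes, 8.87% higher and 9.37% lower. At an unadjusted p under 0.05 there were 0 members and 3482 of the 10489 genes. The members' differences in this test ran from -0.15 for Pdk2 to 0.42 for Aldoa (SE 0.47). Hk2, outside that test, differed by 0.76 with no filter (SE 0.21, adjusted p = 0.0691).

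Each member has paralogues that catalyse the same step, and the shares within a family were computed per library as descriptions, chosen after values had been seen. Pdk2 made up 23.4% ± 2.20 (SD, n = 3) of the summed PDH kinases Pdk1, Pdk2, Pdk3 and Pdk4 in 4-week controls and 4.95% ± 1.21 in Vav knockouts. At 8 weeks the share was 23.9% ± 3.29 in controls, 4.69% ± 5.43 in Vav knockouts and 2.86% ± 2.13 (SD, n = 4) in transplanted mice. Pdk3 was the most abundant of the kinases per length in 21 of 22 libraries, and Pdk4 was listed at 0 in all. The summed kinases stood at 20.4 ± 0.879 FPKM in 8-week controls, 13.8 ± 2.45 in Vav knockouts and 11.2 ± 3.07 in transplanted mice. Pdk3 itself was not called in any of the 4 comparisons (-0.08, 0.14, -0.14 and -0.48).

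Hk2 supplied 4.32% ± 0.107 of the summed hexokinases Hk1, Hk2 and Hk3 in 8-week controls, 20.1% ± 5.38 in Vav knockouts and 24.7% ± 10.9 in transplanted mice. The Pfkp share of the 3 phosphofructokinases was 28.0% ± 1.75, 14.0% ± 2.19 and 15.5% ± 4.45 in the same groups, while Pfkl (0.55 and 0.27) and Pfkm (0.55 and 0.44) were not called. Ldha supplied 12.6% ± 1.18 of Ldha plus Ldhb in 8-week controls, 45.7% ± 6.22 in Vav knockouts and 41.0% ± 17.2 in transplanted mice. At 4 weeks the Ldha share was 13.4% ± 1.48 in controls and 21.8% ± 2.87 in Vav knockouts, and 11.7% ± 0.323 and 16.5% ± 0.391 in the Lck table.

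**Figure D4:**
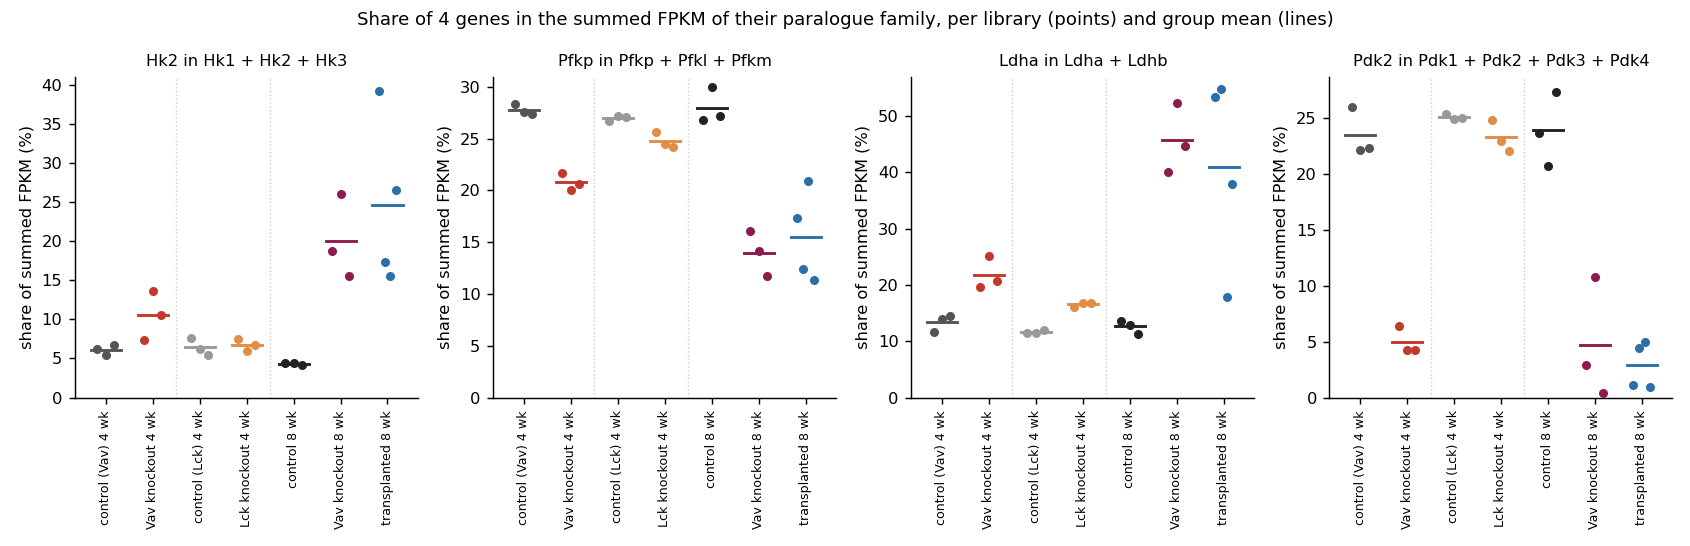
Share of Hk2, Pfkp, Ldha and Pdk2 in the summed FPKM of their family (vertical axis, percent, from 0) in the 7 groups (horizontal axis). Points are libraries and lines are group means. Transplanted replicate 3 has the lowest Ldha share of its group at 17.8%, and Pdk2 stays at or below 10.8% in all Vav knockout and transplanted libraries.

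Ldhb, the lactate dehydrogenase form that favours lactate use, was the 1 gene called among 11 tested of 18 other glycolytic enzymes in each of the 4 comparisons. At 4 weeks it held 313 to 317 FPKM in Vav controls and 189 to 235 in knockouts, and 298 to 309 and 226 to 246 in the Lck table. At 8 weeks controls held 331 to 366 FPKM, Vav knockouts 83.9 to 110 and transplanted mice 60.4 to 189. Ldhb fell in each, with differences of -0.53 (adjusted p = 0.0179), -0.34 (0.0380), -1.89 (0.0119) and -1.74 (0.0119) in the order Vav at 4 weeks, Lck, Vav at 8 weeks and transplanted. The Lck call was lost without any 1 of its 6 libraries (adjusted p from 0.0705 to 0.169), and the other 3 were lost without any 1 control (0.0503 to 0.0765) and, in Vav knockouts at 8 weeks, without knockout replicate 3 (0.0534). The median over the 11 enzymes was 0.04, 0.06, 0.46 and 0.19 in that order. Ldhb at 8 weeks differed from its 4-week Vav effect by -1.36 (SE 0.16, adjusted p = 0.000981), and Tpi1, the triose phosphate isomerase, by 1.12 (adjusted p = 0.0470), a call that was lost without any 1 of 8 libraries (0.0504 to 0.108).

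Other transporters and the PDH complex were read from lists of the same kind. Slc5a9, a sodium-coupled sugar transporter, was the 1 gene called of 11 listed, of which 1 was tested in the 4-week Vav comparison and 2 in each of the others. It fell in each, with differences of -1.44, -1.38, -2.18 and -2.19 (adjusted p = 0.00725, 0.0109, 0.00187 and 0.00104) in the order used for Ldhb. Of these 4 calls the Lck call was lost without any 1 control (adjusted p from 0.0541 to 0.0766) or without knockout replicate 2 (0.0513), and the other 3 were kept with any 1 library left out. Its levels were 10.5 to 15.3 FPKM in Vav controls at 4 weeks and 3.07 to 5.14 in knockouts, and 17.7 to 19.5 and 5.49 to 7.83 in the Lck table. Of 9 tested genes of the PDH complex and its other regulators, Dld, the shared dihydrolipoamide dehydrogenase subunit, rose by 0.54 in Vav knockouts at 8 weeks (adjusted p = 0.0375). That call was lost without any 1 control or knockout, or without transplanted replicate 4 (0.0513 to 0.134), and the other 3 comparisons had 0 calls, with 3, 0 and 1 at an unadjusted p under 0.05. Among 4 tested pyruvate and lactate carriers 0 were called in these comparisons, with 1 at an unadjusted p under 0.05 in each 8-week comparison. Counts at that level are to be read against those over all genes, given with the members. Of 7 pentose phosphate genes, Rpia fell by 0.32 in Vav knockouts at 4 weeks (adjusted p = 0.0237), a call lost without any 1 control or knockout replicate 3 (0.0622 to 0.107).

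Among regulators of glycolysis, Myc, which activates glycolytic genes and Hk2 among them in many cells, rose in every Vav comparison. It held 0.937 to 1.09 FPKM in 4-week Vav controls and 3.56, 6.49 and 4.34 in knockouts, a rise of 1.51 (SE 0.18, adjusted p = 0.00468). At 8 weeks it held 0.734 to 0.945 FPKM in controls, 16.5, 13.7 and 15.8 in Vav knockouts and 23.0, 21.3, 1.47 and 9.34 in transplanted mice. The rises were 3.16 (SE 0.71, adjusted p = 0.0277) and 2.57 (SE 0.67, adjusted p = 0.0436). All 8-week controls lay under 1 FPKM, so Myc entered that test only through knockout and transplanted libraries. At 4 weeks the lowest Vav control was also under 1 FPKM, and Myc entered only with its knockouts. Its calls therefore describe these values only. The 4-week call was kept with any library left out, the 8-week Vav call was lost without any 1 control or knockout (0.0732 to 0.101), and the transplanted call was kept only without transplanted replicate 3 (otherwise 0.0672 to 0.146). In Lck knockouts Myc held 1.20 to 1.76 FPKM beside 0.692 to 1.16, a difference of 0.35 (adjusted p = 0.351).

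Of the 12 regulators tested at 4 weeks in Vav knockouts, Tigar, which lowers the flow through phosphofructokinase, rose by 0.25 (adjusted p = 0.0456) and Arrdc4, an arrestin that limits glucose uptake, fell by 0.57 (adjusted p = 0.0174). Arrdc4 at 8 weeks was not tested and held 0.837 to 1.45 FPKM in controls and at most 0.0126 in the 7 other libraries. Txnip, its relative with the same role, fell by 0.76 in transplanted mice (adjusted p = 0.0442), and Prkaa1, a catalytic subunit of the energy sensor AMPK, rose by 0.83 there (adjusted p = 0.0312). These calls also depended on single libraries: Tigar was lost without any 1 of 6 (0.0568 to 0.170), Arrdc4 without any 1 control (0.0569 to 0.0804), Txnip in all but the fit without transplanted replicate 3 (0.0571 to 0.171) and Prkaa1 without any 1 control, Vav knockout replicate 1 or transplanted replicate 1 (0.0545 to 0.131). Hif1a was called in none of the 4 comparisons (-0.14, -0.02, -0.41 and -0.05).

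Hypoxia-response genes outside glycolysis share regulators with Pdk1 and Ldha. Of 9 tested at 4 weeks in Vav knockouts 2 fell, the mitophagy receptor Bnip3 by 0.75 (adjusted p = 0.00446) and Ankrd37 by 0.47 (adjusted p = 0.0433), and of 10 tested in transplanted mice Mxi1 fell by 0.63 (adjusted p = 0.0147) and Bnip3 by 0.95 (adjusted p = 0.0276). Without any 1 control the transplanted calls were lost (0.0525 to 0.129), that of Bnip3 also without transplanted replicate 1 (0.0577) or 4 (0.0501), and Ankrd37 was kept only without control replicate 1 (otherwise 0.0597 to 0.142). No such gene was called in Lck knockouts, with 2 at an unadjusted p under 0.05, nor in Vav knockouts at 8 weeks, with 3. Cell cycle genes gave 0 of 20 called in each of the 4 comparisons, with 6, 17, 1 and 3 at an unadjusted p under 0.05 in the order used for Ldhb. Over all tested genes the counts at that level were 3239 of 10828, 1503 of 10946, 3417 of 11632 and 3028 of 11632. The median difference of the 20 cell cycle genes was 0.07, 0.18, 0.18 and -0.45. Transplanted replicate 3 summed to 305 FPKM over these genes. The other transplanted libraries each summed above the highest 8-week control, which held 1028 FPKM.

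Promoter letters were also counted over all windows of 300 bases that reach from 250 before to 50 after a RefSeq start. The table held 16 windows for 9 members and none for Slc2a3. The letters ACGTG, the core of the hypoxia response element, lay in 8 of the 16 windows on either strand and in 19.6% of 32851 windows. CACGTG, which holds ACGTG on both strands, lay in 2, of Ldha and Pdk2, against 7.15% of all. CAGGTG, the E-box form preferred by E proteins, lay in 2 windows, of Hk1 and Ldha, against 20.2%, and CAGCTG in 3 against 16.3%. Windows of the same gene overlap in part or share a locus, so these counts are descriptions.

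The genes most like each called member were ranked by Pearson r over 22 libraries, after the control mean of each table was subtracted, among 6310 genes. For Pdk2 they were Dennd6a (0.968), the receptor segment Trbv21 (0.949) and Impdh1 (0.941). Those for Hk2 were Nop2 (0.968), Prmt7 (0.964) and Adpgk (0.964), and those for Pfkp were Cd6 (0.928), Trac (0.919) and Pcm1 (0.908). Pdk1 was nearest to Trac (0.928), Hibadh (0.904) and BC065403 (0.904), and Slc2a1 to Tjap1 (0.868), Trac (0.846) and E2f4 (0.844). The 22 libraries fall into groups, so such values describe a shared pattern over groups.

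On mm10 the members are Slc2a1 (chromosome 4, 119108711 to 119137983), Slc2a3 (6, 122727809 to 122801640), Hk1 (10, 62268855 to 62379908) and Hk2 (6, 82725025 to 82774454). Pfkp (13, 6579768 to 6648777), Aldoa (7, 126795234 to 126800751) and Pkm (9, 59656368 to 59679375) follow, then Ldha (7, 46841475 to 46855627), Pdk1 (2, 71873224 to 71903858) and Pdk2 (11, 95026258 to 95041354). Another annotated gene overlaps 8 of the 10, all but Ldha and Pdk1, and on the opposite strand of Pdk2 this is Gm11513. Reads of such pairs cannot be told apart where counting ignores strand.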

How the data were processed

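RNA from the sorted cells was extracted (RNeasy mini) and amplified into NuGEN Ovation Ultralow libraries, per the labels' protocols. Values are FPKM per gene, as the authors deposited them in 3 tables, and Trimmomatic 0.33, STAR, HTSeq 0.6.1, DESeq2 and the build mm10 are named in the submitters' processing notes with no role or order. Gene lengths, annotation and strand setting are not given in the sources used here.

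Each table held 43430 genes, of which 42546 were matched to a symbol by Ensembl identifier. Columns were matched to samples by name and 0 were left unused. No 2 libraries were identical. Between 39.5% and 58.7% of low values came out as whole reads (tolerance 0.03), which did not allow counts to be recovered, so no count model was used and depth was only inferred. Same-numbered libraries were not paired.

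log2(FPKM + 1) was tested with limma 3.58.1 (trend, R 4.3.3), with the Benjamini-Hochberg adjusted p under 0.05 over tested genes. A gene was tested where 3 or more libraries of every table used reached 1 FPKM, and a fit without a library kept the same genes. The 4-week comparisons used 6 libraries each, the 8-week comparisons 1 fit of 10, and differences of effects 12 libraries. Tables were treated as separately normalized. Tables were handled in Python 3.11.15 with pandas 2.3.3. The model was tested on simulated data in which each gene had the same spread in every group. That test could not show how the model does where groups differ in spread, as they did at 8 weeks.

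The 10 members and the 16 gene lists were chosen with earlier results of these data known. All members are named; of each list, up to 4 called genes with the smallest p. Genes most like a called member were the 3 with the highest r among genes averaging 5 FPKM or above. Pseudocount, filter, scaling, variances, block, groups in the fit and each library left out were the alternatives. Results that need certain withheld genes are not reported here.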

Additional observations from a re-analysis of the deposited data

Results flagged for a closer look

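Among the 4 transplanted mice of 8 weeks, 30 named genes were checked for a library far from the others, by its gap to the nearest library as a share of the group's range, against a critical value of 0.829. Chance passes that value in about 1 in 20 groups. Hk1 in replicate 2 was apart (0.912 of the range, 7.92 FPKM beside 3.66 to 4.04). Ankrd37 in replicate 1 was apart (0.887, 2.74 FPKM beside 0.918 to 1.12), and Rrm1, a ribonucleotide reductase subunit, in replicate 3 was apart in the low direction (0.860, 28.2 FPKM beside 94.8 to 106).

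Between the Vav and the Lck deletion at 4 weeks, the effects differed by limma's interaction test for Pdk2 (-1.65, SE 0.14, adjusted p = 0.000248), Bnip3 (-1.03, adjusted p = 0.00203), Myc (1.15, adjusted p = 0.0262) and the cyclin Ccna2 (-0.45, adjusted p = 0.0449). Pdk2 entered this test only with its Vav controls. Myc entered it, and the test between ages, only with its knockouts. Between 8 and 4 weeks, the difference in the Vav effect was called for 0 of the 9 members tested, Hk2 not among them, and, in the same test, for Myc (1.66), Tpi1 (1.12), Tkt of the pentose phosphate pathway (0.80), the lactate carrier Slc16a1 (0.62) and Dld (0.46), which were higher at 8 weeks relative to control than at 4. It also differed upward for the replication genes Mcm6 (0.91), Mcm7 (0.56), Mcm2 (0.54) and Rrm1 (0.45), and downward for Ldhb (-1.36) and Tigar (-0.68).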

How the results depend on the processing

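No called result changed direction under any setting. Of the results for single members, 450 stayed on the same side of the threshold under other settings, 5 gained and 6 lost a call, and with a library left out 596 stayed, 11 gained and 17 lost one. The members called in Vav knockouts at 4 weeks were 1 with a mean of 5 FPKM required (3 with the filter as reported), which leaves 4 members tested, Pdk2 not among them, and from 2 to 4 with a library left out. In Vav knockouts at 8 weeks the 1 call became 2 with a pseudocount of 0.1 and 0 with the mean filter, under which Pdk2 was not tested. It became 5 (Pdk2, Hk2, Ldha, Pfkp and Slc2a3) with only the 2 groups in the fit. There calls over all genes rose from 541 higher and 518 lower of 11632 to 2511 and 2494 of 10958, so the larger count of members reads against a larger background. With a library left out the count of members ran from 1 to 4, at 2 without transplanted replicate 1 and 4 without replicate 3, where 1902 genes were called higher and 1623 lower of 11632. In transplanted mice the 3 calls became 1 with the mean filter, under which Pdk2 and Hk2 were not tested, and 1 with a replicate block. With a library left out they ran from 1 to 5, at 1 without any 1 control or transplanted replicate 4 and 5 without replicate 3. Without replicate 3 calls over all genes went from 534 higher and 535 lower to 2105 and 1708 of 11632. The Vav minus Lck effect had 1 call, Pdk2, and 0 with the mean filter, under which Pdk2 was not tested. With a library left out it had from 1 to 2, 2 without Vav knockout replicate 3. The effect at 8 minus 4 weeks had 0, and from 0 to 1 with a library left out (Pkm, 0.61, adjusted p = 0.0486, without Vav knockout replicate 3). The counts for Lck knockouts and for transplanted against untransplanted mice stayed at 0 throughout. Slc2a1 at 4 weeks missed the threshold with no filter (adjusted p = 0.0625) and with the replicate block (0.0597). Hk2 in transplanted mice missed it with no filter (adjusted p = 0.0747), with only the 2 groups in the fit (0.0765) and with the replicate block (0.0978).

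Replicate numbers are shared between groups, but same-numbered libraries deviated together only weakly (correlations from -0.10 to 0.18), so the numbers were not taken as pairs. Scaling to a common sum moved the median of all genes in Vav knockouts at 8 weeks to -0.12. It also turned the calls over all genes from 826 higher and 658 lower to 603 and 1003 in Vav knockouts at 4 weeks, from 22 and 88 to 4 and 87 in Lck knockouts, and from 930 and 983 to 594 and 1255 for 8 minus 4 weeks. The median standard error was 0.216 for Vav knockouts at 8 weeks, in the fit that holds the transplanted libraries, 0.154 without transplanted replicate 3 and 0.108 with only the 2 groups, beside 0.0849 at 4 weeks.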
